A study of Homo sapiens with 12 samples.

Results

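ATP7B knockout (KO) HepG2 cells were compared with wild type HepG2 cells when both had been incubated with copper. The comparison took 3 ATP7B KO copper libraries and 3 wild type copper libraries, which are 6 of the 12 libraries in the series, and covered all genes. HepG2 is an established line from a human liver tumour. The series also holds 3 untreated libraries of each genotype. Copper was given for 24 h in both copper groups at a dose that the labels do not state, so the groups share cell line, metal and time and differ in genotype. The labels name 1 ATP7B KO line. They give neither the edited site nor whether the line is a single clone, so the effect of losing ATP7B and other differences between these lines cannot be told apart. The labels call the libraries biological replicates without naming separate cultures, so p-values measure the spread between these libraries, which may in part be technical. Below, "KO" and "wild type" stand for the copper libraries of each genotype unless untreated cells are named, and values in a triplet are replicates 1, 2 and 3.

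ATP7B is the copper-transporting ATPase that hepatocytes use to load copper onto ceruloplasmin and to pass excess copper into bile, and its loss causes Wilson disease, in which copper builds up in the liver. Inside cells, copper is bound by metallothioneins and handed on by chaperones, and an excess of it misfolds proteins and oxidises thiols. The heat shock response, the proteasome, autophagy and the lysosome deal with damaged proteins, and the title of the series concerns autophagy as a survival route in this disease.

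The KO libraries held 2388597 to 2807634 counts and the wild type libraries 1873703 to 2581954. CPM is a gene's count per 1000000 counts in its library. Genes were tested with edgeR's quasi-likelihood test on these 6 libraries and called at a Benjamini-Hochberg adjusted p below 0.05, and "rose" and "fell" are used of called genes, as higher or lower in KO. Fold changes are given as log2 fold change ± standard error, positive where KO was higher, and group means as mean ± SD with n = 3. Wild type replicate 1 stood apart: its log2 CPM correlated with those of replicates 2 and 3 at Pearson's r = 0.935 and 0.905, against 0.973 between those 2 and 0.980 to 0.982 among KO libraries. Between the genotypes r ran from 0.820 to 0.917, and it was lowest for wild type replicate 1. Mitochondrially encoded genes took 4.21% to 4.29% of counts in KO and 2.62% to 3.97% in wild type. Calls were repeated in 14 other settings (each library left out in turn, other scalings, filters, tools and fits). A call of a gene named by the rule held in each setting that tested the gene, unless the text says where it ended. Genes with low counts were not tested in every setting. A fit with the replicate number as a block is given apart, at the end.

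All 15 markers of hepatocyte and hepatoma identity were counted in every library. Their summed level was 5096 to 5197 CPM in KO and 11127 to 12024 CPM in wild type, against 10123 to 13563 CPM in untreated KO and 23288 to 24224 CPM in untreated wild type cells. Both genotypes thus carried the hepatocyte markers, at a lower summed level in KO. In bulk RNA, fewer cells of a type and less RNA per cell cannot be told apart. Markers of fibroblasts and other stromal cells summed to 97.5 to 164 CPM in KO and 52.3 to 81.7 CPM in wild type. Those of endothelial cells summed to 7.84 to 12.98 and 0 to 2.61 CPM, and those of white blood cells to 205 to 235 and 331 to 877 CPM. Counts were found for 9 to 13 of the 13 stromal markers, for 0 to 4 of the 9 endothelial markers and for 4 to 6 of the 10 white blood cell markers per library. KDR, STAB2, TEK, PTPRC, CD3E and AIF1 were at 0 in all 6 libraries. The part of such markers in the results was not tested.

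The targeted gene did not separate the groups. ATP7B was at 3.92, 4.19 and 6.77 CPM in KO and at 5.34, 3.92 and 3.87 CPM in wild type (log2 fold change 0.11 ± 0.37, adjusted p = 0.86), so the ranges overlapped. Reads in this 3′ assay come from near the polyadenylated end of a transcript, and an edit elsewhere in the gene can leave them in place, so the level of ATP7B mRNA checks neither the edit nor the labels.

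Of 10155 tested genes, 2694 (26.5%) were called. KO was higher for 1179 of them (11.6% of tested genes) and lower for 1515 (14.9%). At 2-fold or more, 702 genes rose and 883 fell, and at 4-fold or more 116 rose and 166 fell. The median log2 fold change over all tested genes was -0.0018. The calls did not all rest on the same libraries: leaving out 1 library gave 1135 calls without KO replicate 1, 1266 without KO replicate 3, 1407 without KO replicate 2 and 1609 without wild type replicate 2, but 4087 without wild type replicate 1 and 3429 without wild type replicate 3. CPM ranges of the 2 groups did not overlap for 47.9% of all tested genes, so a gap between the groups alone was common. It held for 2670 of the 2694 called genes. The genes named below for the largest rises and falls were chosen among called genes without overlap. The gaps given for them follow from that choice and are no separate result.

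**Figure D1:**
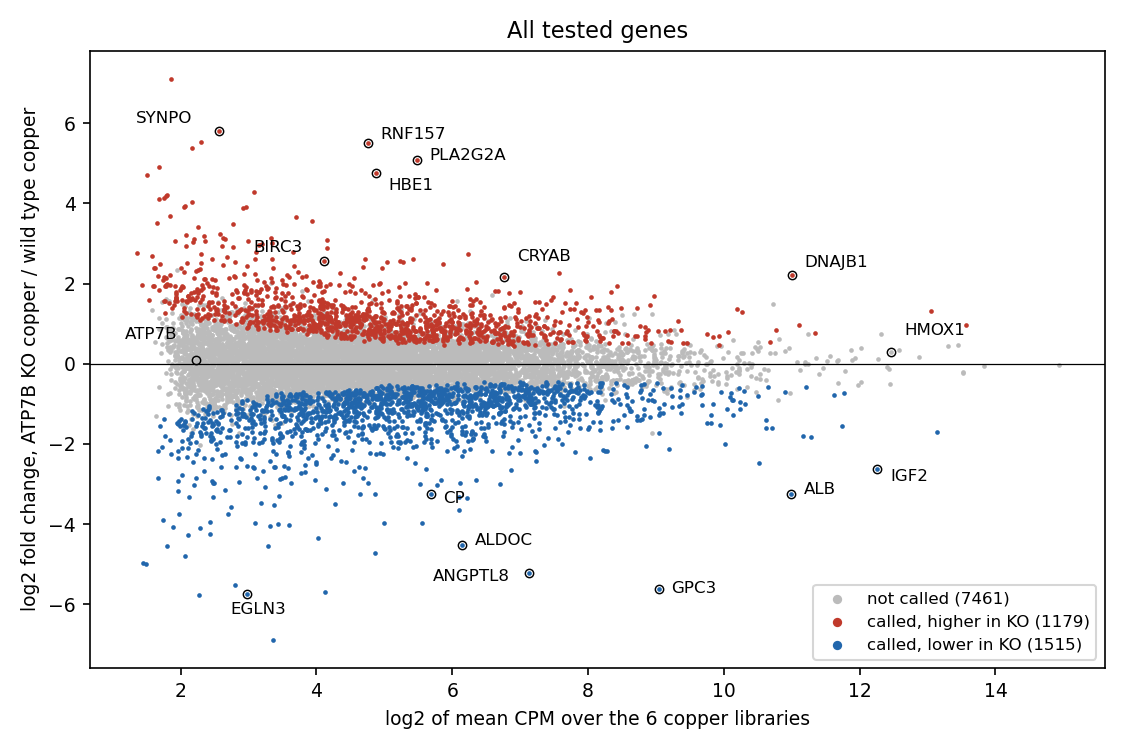
Each point is 1 of 10155 tested genes, with its mean CPM over the 6 copper libraries (log2, x axis) and its log2 fold change between ATP7B KO copper and wild type copper (y axis). Called genes lie on both sides, 1179 higher and 1515 lower in KO. GPC3, ANGPTL8, ALDOC and ALB stand far below 0 at high levels, and PLA2G2A, RNF157, HBE1 and DNAJB1 far above it.

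Among the largest falls were genes of the liver lineage. GPC3 was at 21.7, 23.9 and 21.5 CPM in KO and at 1111, 1059 and 919 CPM in wild type (log2 fold change -5.61 ± 0.19, adjusted p = 1.8e-06). GPC3 encodes glypican-3, a cell surface proteoglycan of fetal liver and liver tumours. All KO libraries were far below all wild type libraries. ALB was at 426, 405 and 401 CPM in KO and at 3846, 3528 and 3604 CPM in wild type (log2 fold change -3.24 ± 0.17, adjusted p = 2.0e-05), with no overlap. ALB encodes albumin, the main protein of plasma. ANGPTL8 was at 10.7, 7.95 and 4.38 CPM in KO and at 417, 214 and 188 CPM in wild type (log2 fold change -5.22 ± 0.42, adjusted p = 2.0e-04). ANGPTL8 is a secreted inhibitor of lipoprotein lipase, and its highest KO value was below its lowest wild type value.

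Other genes with the largest falls belonged to several systems. BEX1 was at 0.356, 0.419 and 1.19 CPM in KO against 34.7, 34.0 and 34.5 CPM in wild type (log2 fold change -5.70 ± 0.35, adjusted p = 4.2e-05). TNS1, which links integrins to actin, was at 2.18 ± 0.812 CPM in KO and 56.1 ± 15.5 CPM in wild type (-4.72 ± 0.35). The liprin scaffold gene PPFIA4 (-4.55 ± 0.54) and the receptor phosphatase gene PTPRJ (-4.24 ± 0.62) also fell. For RHBDD1, EGLN3 and IL21R the KO libraries held 1 to 3 counts in all, so the ratio of pooled CPM is given in place of a fitted fold. Wild type was higher by a ratio of 154 (exact 95% counting interval 27.2 to 6133) for RHBDD1, a rhomboid protease gene, of 60.5 (exact 95% counting interval 16.3 to 506) for EGLN3 and of 50.2 (exact 95% counting interval 13.5 to 421) for IL21R, the receptor of interleukin 21.

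Several of the largest rises were in genes with few counts in wild type. PLA2G2A was at 89.0, 83.3 and 88.8 CPM in KO and at 3.20, 1.31 and 2.71 CPM in wild type (log2 fold change 5.08 ± 0.27, adjusted p = 2.0e-05). PLA2G2A encodes a secreted phospholipase A2, and its groups were far apart. RNF157 was at 49.2, 64.9 and 44.6 CPM in KO and at 2.67, 0.871 and 0 CPM in wild type (log2 fold change 5.50 ± 0.51, adjusted p = 3.0e-04). RNF157 encodes a ubiquitin ligase. HBE1 was at 54.5, 61.1 and 54.5 CPM in KO and at 2.67, 2.18 and 1.16 CPM in wild type (log2 fold change 4.75 ± 0.28, adjusted p = 3.9e-05). HBE1 encodes the embryonic epsilon globin, and each KO library exceeded every wild type library in all 3 genes. SYNPO, an actin-binding protein gene, had 1 count in the wild type libraries together, and KO was higher by a ratio of 77.9 (exact 95% counting interval 13.6 to 3113).

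MSRB3, a methionine sulfoxide reductase gene, was at 16.2 ± 1.95 CPM in KO and 0.727 ± 0.174 CPM in wild type (4.28 ± 0.38), and the ubiquitin-like modifier gene UBD at 28.4 ± 1.94 CPM in KO and 2.36 ± 1.74 CPM in wild type (3.55 ± 0.38). The AP-1 family factor BATF (3.90 ± 0.52), the tetraspanin CD9 (3.88 ± 0.63), the proprotein convertase PCSK5 (3.24 ± 0.46), the collagen mRNA-binding protein LARP6 (3.14 ± 0.36), ALPK2 (3.66 ± 0.38) and MNS1 (3.48 ± 0.58) rose too. Among genes above a mean of 100 CPM, the smallest adjusted p-values of rising genes belonged to CRYAB, AP5Z1 (2.26 ± 0.18), DNAJB1, the cortactin gene CTTN (1.59 ± 0.15), ANKRD1 (1.47 ± 0.15), the splicing factor SRSF1 (1.78 ± 0.19), FDXR (1.29 ± 0.15) and DCBLD2 (1.28 ± 0.15). Those of falling genes also took in INHBE (-2.99 ± 0.20), a subunit of activin E, the receptor ERBB3 (-2.64 ± 0.18), FILIP1L (-2.19 ± 0.16), SPON2 (-2.42 ± 0.19) and ANKZF1 (-2.35 ± 0.20).

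Several of the largest differences were also present without copper. Untreated, GPC3 was at 37.4, 31.7 and 28.1 CPM in KO and 1792, 1738 and 1887 CPM in wild type (log2 fold change -5.87 ± 0.33, adjusted p = 7.8e-04). PLA2G2A was at 328, 261 and 405 CPM in KO and 3.69, 4.18 and 2.53 CPM in wild type (6.48 ± 0.34, adjusted p = 7.8e-04), and RNF157 at 297, 263 and 179 CPM in KO and 1.85, 1.57 and 1.12 CPM in wild type (7.24 ± 0.41, adjusted p = 7.8e-04). HBE1 (4.82 ± 0.49), BEX1 (-6.16 ± 0.57), TNS1 (-4.29 ± 0.32) and ALB (-2.86 ± 0.29) were called there in the same direction. The untreated libraries share none with the copper comparison.

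**Figure D2:**
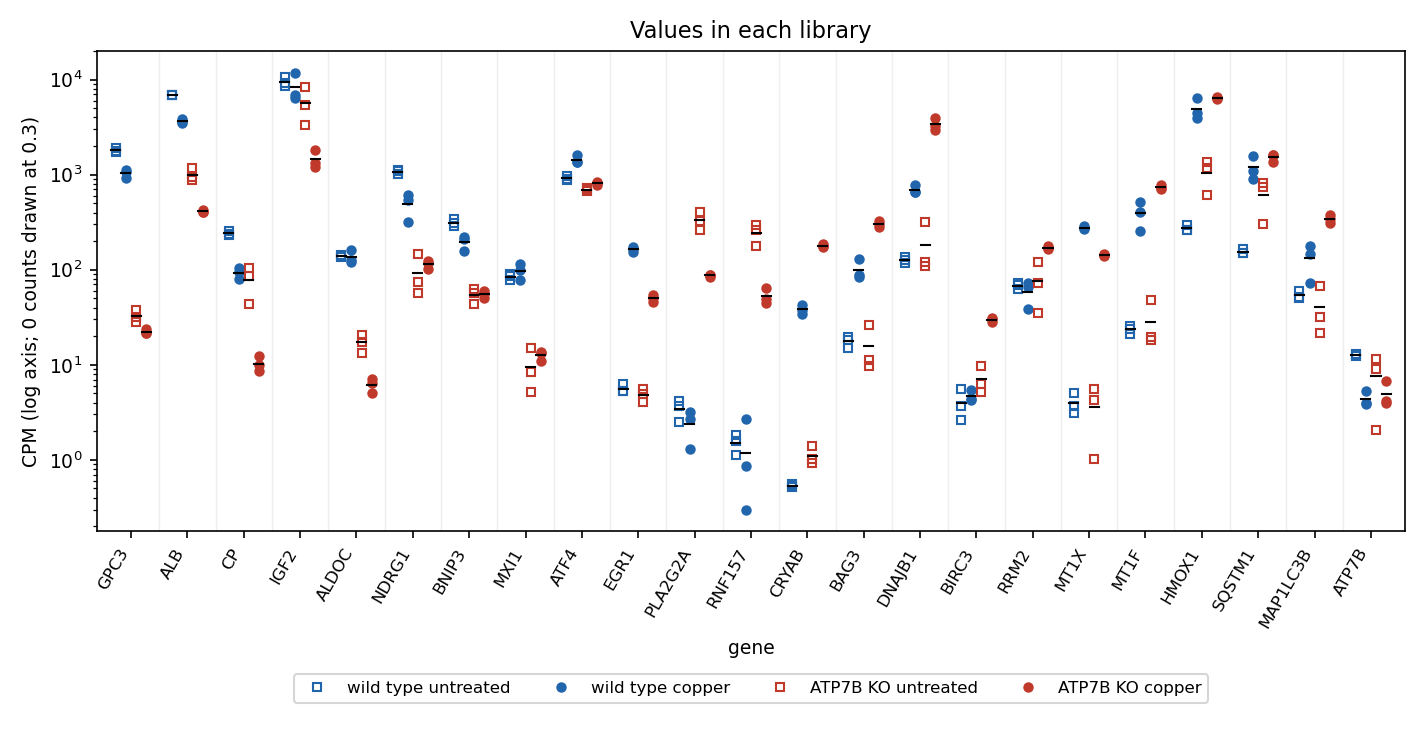
CPM of 23 genes (x axis) in each of the 12 libraries (y axis, log scale, a library with 0 counts drawn at 0.3), with wild type in blue, ATP7B KO in red, untreated as open squares, copper as filled circles and group means as bars. GPC3, ALB, CP and ALDOC are lower and PLA2G2A, CRYAB and DNAJB1 higher in every ATP7B KO copper library than in every wild type copper library, while ATP7B and SQSTM1 overlap.

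Gene lists were read against the share of all tested genes called, which was 11.6% higher and 14.9% lower in KO. By that measure, lists of glycolysis, hypoxia targets, hepatocyte secretion, the integrated stress response and histones held many members that fell, and lists of DNA replication, HSP70 and DNAJ chaperones and the proteasome many that rose. Lists of core autophagy, nuclear respiratory chain and glutathione genes lay near or below the background in both directions. List counts depend on single libraries, so the lowest and the highest count with 1 library left out follow most counts of 2 or more, with the library that was left out. The background moved as well. Over all tested genes the rises ran from 436 of 10466 without KO replicate 1 to 1914 of 10500 without wild type replicate 1, and the falls from 699 to 2173 in the same fits. Of the named genes that were not called, 33 were called without wild type replicate 1, and those described below are given with their gene group. Some were also called with all 6 libraries in another setting. With no filter on low counts these were 10: HSPA8, MT1H, BAX, TRIB3, CEBPB, BBC3, AFP, APOE, HMGCS1 and SCD. DESeq2 called 4 (HSPA8, TRIB3, AFP and SCD), scaling by total counts alone 4 (HSPA8, PSMA7, CDKN1A and KRT18) and limma voom 1 (HSPA8).

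**Figure D3:**
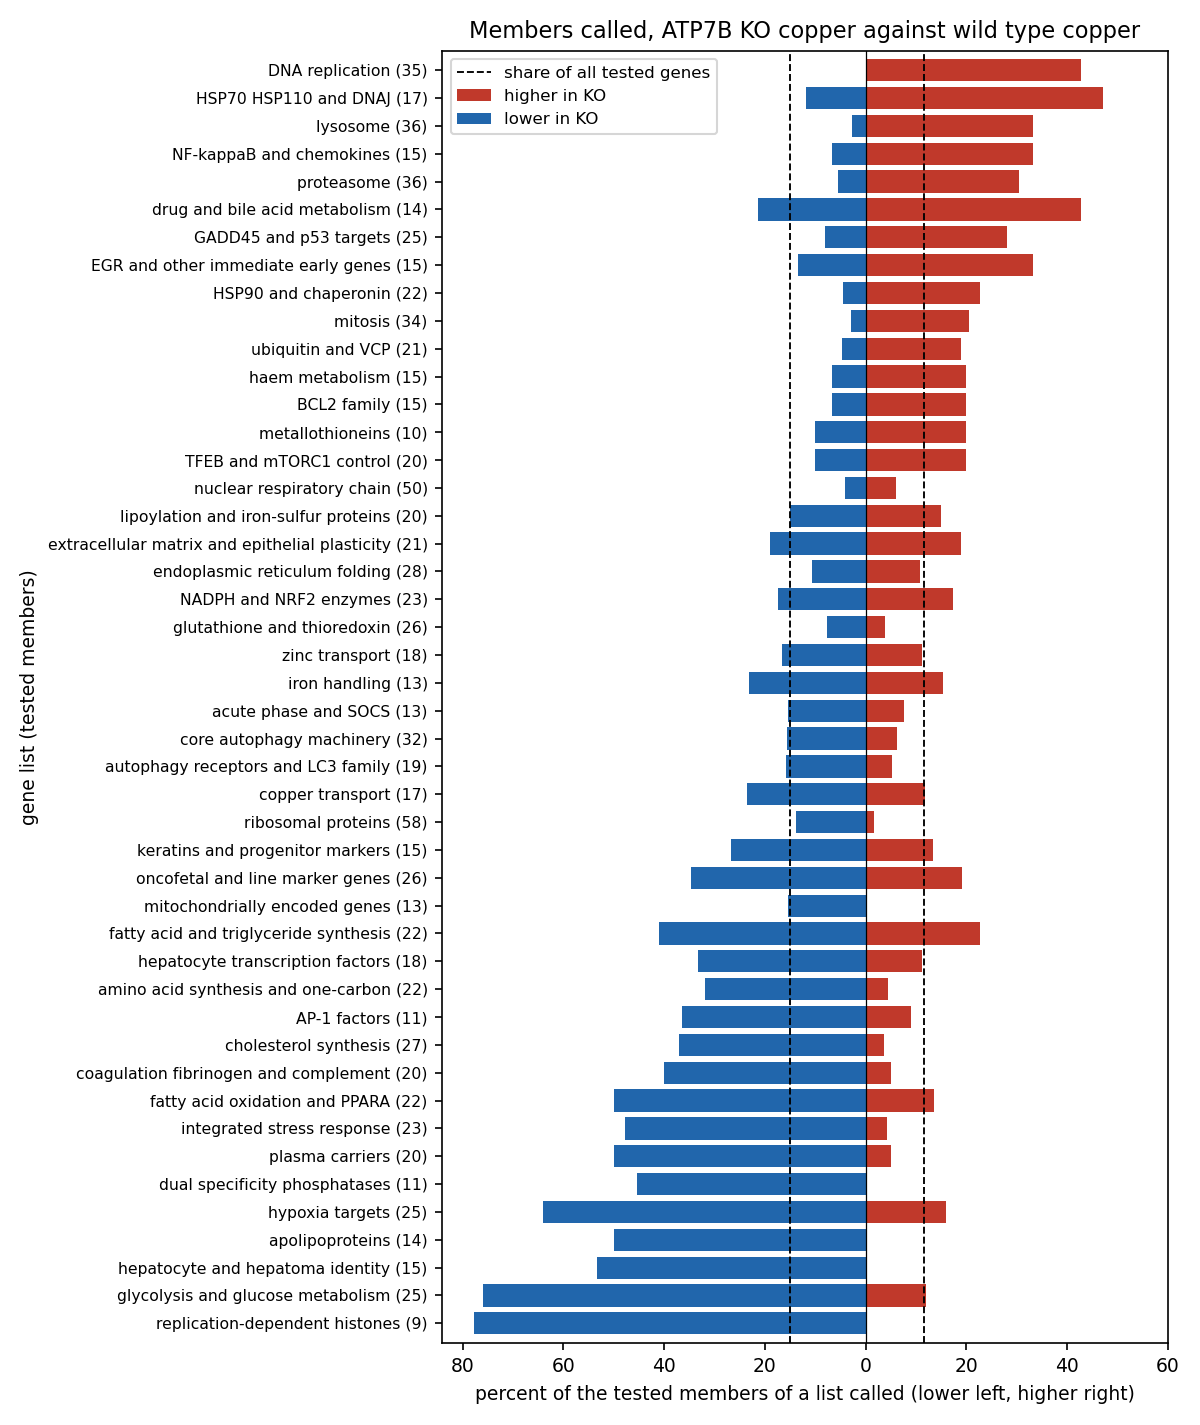
Percent of the tested members of each of 46 gene lists with at least 9 tested members (tested members in brackets) that were called lower (blue, left) or higher (red, right) in ATP7B KO copper than in wild type copper. Dashed lines mark the shares of all tested genes, 14.9% lower and 11.6% higher. Glycolysis (19 of 25 lower) and histones (7 of 9 lower) lie at one end and DNA replication (15 of 35 higher) at the other.

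Most tested genes of the hypoxia list were lower in KO. The hypoxia-inducible factors HIF-1 and HIF-2 bind a short DNA core and drive enzymes of glycolysis, oxygen-sensing prolyl hydroxylases and survival genes. Of the hypoxia list, 4 of 25 tested members rose and 16 fell, with a median log2 fold change of -1.07 beside -0.0018 over all genes. With 1 library left out, the falls ran from 14 without wild type replicate 2 or any 1 KO replicate to 18 without wild type replicate 1, and the rises from 2 without wild type replicate 2 or any 1 KO replicate to 4 without wild type replicate 1. The list shares PDK1, PFKFB3, PFKFB4 and SLC2A1 with the glycolysis list. The upstream sequences of BNIP3, LOX and ALDOC, the last an enzyme of glycolysis, are shown as examples of genes that fell and hold the core several times. The 250 bases before the start of each gene are from RefSeq (GRCh38.p14), 5′ to 3′ on the gene's strand, with ACGTG and GCGTG, searched on both strands, in capitals. The intervals are chr10:131981924-131982173, minus strand for BNIP3, chr17:28576896-28577145, minus strand for ALDOC and chr5:122078260-122078509, minus strand for LOX. PDK1 was called without wild type copper replicate 1 (adjusted p = 0.030).

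BNIP3: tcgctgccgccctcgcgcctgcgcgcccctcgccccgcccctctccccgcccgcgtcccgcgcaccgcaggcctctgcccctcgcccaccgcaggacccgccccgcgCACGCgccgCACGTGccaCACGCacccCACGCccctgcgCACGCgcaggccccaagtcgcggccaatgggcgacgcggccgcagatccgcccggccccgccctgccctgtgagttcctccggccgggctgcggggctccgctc

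ALDOC: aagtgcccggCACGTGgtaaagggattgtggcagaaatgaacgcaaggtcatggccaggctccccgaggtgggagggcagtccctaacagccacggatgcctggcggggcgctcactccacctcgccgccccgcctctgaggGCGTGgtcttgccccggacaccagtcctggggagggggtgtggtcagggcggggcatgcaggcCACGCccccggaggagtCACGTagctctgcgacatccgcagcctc

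LOX: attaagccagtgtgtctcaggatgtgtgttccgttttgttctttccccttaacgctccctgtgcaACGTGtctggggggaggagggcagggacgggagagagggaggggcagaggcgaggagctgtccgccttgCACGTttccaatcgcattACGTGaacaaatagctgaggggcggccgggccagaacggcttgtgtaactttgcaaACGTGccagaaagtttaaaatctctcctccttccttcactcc

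Counting overlapping matches on both strands separately, BNIP3 held 6, ALDOC 5 and LOX 4. In the window from 250 bases before to 50 after the start, 48.4% of 35116 promoters held at least 1 match, as did 9 of the 13 falling hypoxia genes found in the table, 14 of the 18 falling glycolysis genes and 4 of the 4 rising hypoxia genes. So did 4 of the 5 hypoxia genes not called, 2 of the 3 rising glycolysis genes and 0 of the 3 glycolysis genes not called. Here and below, list genes were counted with 1 promoter each and the background over all promoter entries, so the shares are not fully alike. EGLN3 and MXI1 had 0 matches in that window. A match describes letters and is not a bound site.

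BNIP3 was at 50.2, 56.1 and 60.1 CPM in KO and at 158, 209.6 and 221 CPM in wild type (log2 fold change -1.91 ± 0.18, adjusted p = 3.0e-04). BNIP3 is a mitochondrial receptor of mitophagy, and its KO values all lay below its wild type values. LOX was at 0.712, 0.837 and 1.99 CPM in KO and at 16.0, 16.6 and 23.6 CPM in wild type (log2 fold change -4.04 ± 0.40, adjusted p = 3.5e-04). LOX is the lysyl oxidase that crosslinks collagen and is itself a copper enzyme. MXI1 was at 13.2, 10.9 and 13.5 CPM in KO and at 77.9, 114 and 99.5 CPM in wild type (log2 fold change -3.03 ± 0.21, adjusted p = 8.9e-05). MXI1 is an antagonist of MYC, and it too did not overlap between groups. NDRG1 was at 119, 124 and 103 CPM in KO and at 319, 546 and 609 CPM in wild type (log2 fold change -2.17 ± 0.24, adjusted p = 5.9e-04), with wild type replicate 1 the lowest of its group and still above KO. P4HA1, the prolyl hydroxylase of collagen, was at 72.5 ± 7.70 CPM in KO and 217 ± 36.2 CPM in wild type (-1.67 ± 0.18).

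The oxygen-sensing prolyl hydroxylases differed in their values. EGLN3 was at 0.356, 0.419 and 0 CPM in KO against 13.9, 15.3 and 17.4 CPM in wild type, while EGLN1 was at 20.7, 15.5 and 21.5 CPM in KO against 15.5, 20.9 and 22.5 CPM in wild type and overlapped (log2 fold change -0.12 ± 0.23, adjusted p = 0.73). Of genes chosen after their values were seen, the angiogenic factor VEGFA fell (mean 38.8 CPM in KO and 117 CPM in wild type, log2 fold change -1.68 ± 0.19, adjusted p = 6.8e-04), and so did the factor subunits HIF1A (mean 104 CPM in KO and 193 CPM in wild type, log2 fold change -0.98 ± 0.16, adjusted p = 0.0026) and EPAS1 (mean 33.5 CPM in KO and 62.6 CPM in wild type, log2 fold change -0.99 ± 0.19, adjusted p = 0.0062). Members that rose included EDN1, the endothelin-1 precursor, which was at 10.3, 7.95 and 13.5 CPM in KO against 2.67, 2.61 and 3.49 CPM in wild type (log2 fold change 1.74 ± 0.35, adjusted p = 0.0069) with no overlap. ADM, encoding adrenomedullin, was at 98.7, 90.4 and 88.4 CPM in KO against 34.7, 72.3 and 84.0 CPM in wild type and missed the threshold (log2 fold change 0.45 ± 0.27, adjusted p = 0.25). The hypoxia list thus held members of both signs.

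Most glycolysis genes fell. 3 of 25 tested members rose and 19 fell, with a median of -1.12, and with 1 library left out the falls ran from 14 without KO replicate 2 or 3 to 21 without wild type replicate 1. ALDOC was at 6.41, 5.02 and 7.17 CPM in KO and at 159.6, 119 and 128 CPM in wild type (log2 fold change -4.52 ± 0.23, adjusted p = 2.0e-05). The KO and wild type ranges of ALDOC were far apart. HK1, a hexokinase, was at 1.42, 0 and 3.19 CPM in KO against 40.6, 29.6 and 23.2 CPM in wild type (log2 fold change -4.35 ± 0.53, adjusted p = 9.1e-04). The neuronal enolase gene ENO2 was at 40.7 ± 4.45 CPM in KO and 135 ± 10.9 CPM in wild type (-1.81 ± 0.17) and the liver glycogen phosphorylase PYGL at 39.1 ± 4.35 CPM in KO and 107 ± 4.90 CPM in wild type (-1.54 ± 0.16). Of enzymes named after their values were seen, GAPDH fell (mean 4475 CPM in KO and 13605 CPM in wild type, log2 fold change -1.70 ± 0.23, adjusted p = 0.0015), as did PGK1 (mean 169 CPM in KO and 483 CPM in wild type, log2 fold change -1.59 ± 0.29, adjusted p = 0.0046) and LDHA (mean 194 CPM in KO and 391 CPM in wild type, log2 fold change -1.10 ± 0.16, adjusted p = 0.0019). PFKP (-0.15 ± 0.33) and PDK1 (-0.44 ± 0.30) were not called.

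Glucose transporters split. The high-affinity transporter SLC2A3 was at 192, 183 and 188 CPM in KO against 352, 373 and 388 CPM in wild type (log2 fold change -1.07 ± 0.14, adjusted p = 0.0012), lower in all KO libraries. The liver-type transporter SLC2A2 was at 14.2, 13.8 and 14.7 CPM in KO against 3.20, 2.18 and 3.10 CPM in wild type (log2 fold change 2.24 ± 0.30, adjusted p = 0.0012), higher in all KO libraries. SLC2A1, named after its values were seen, rose (mean 145 CPM in KO and 65.3 CPM in wild type, log2 fold change 1.06 ± 0.20, adjusted p = 0.0051). PFKFB3, also named after its values were seen, makes the activator of phosphofructokinase and passed the test narrowly (mean 31.9 CPM in KO and 20.2 CPM in wild type, log2 fold change 0.58 ± 0.19, adjusted p = 0.047). The glycolysis list held rises from 2 without wild type replicate 2 or 3 or any 1 KO replicate to 3 without wild type replicate 1 when 1 library was left out.

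**Figure D4:**
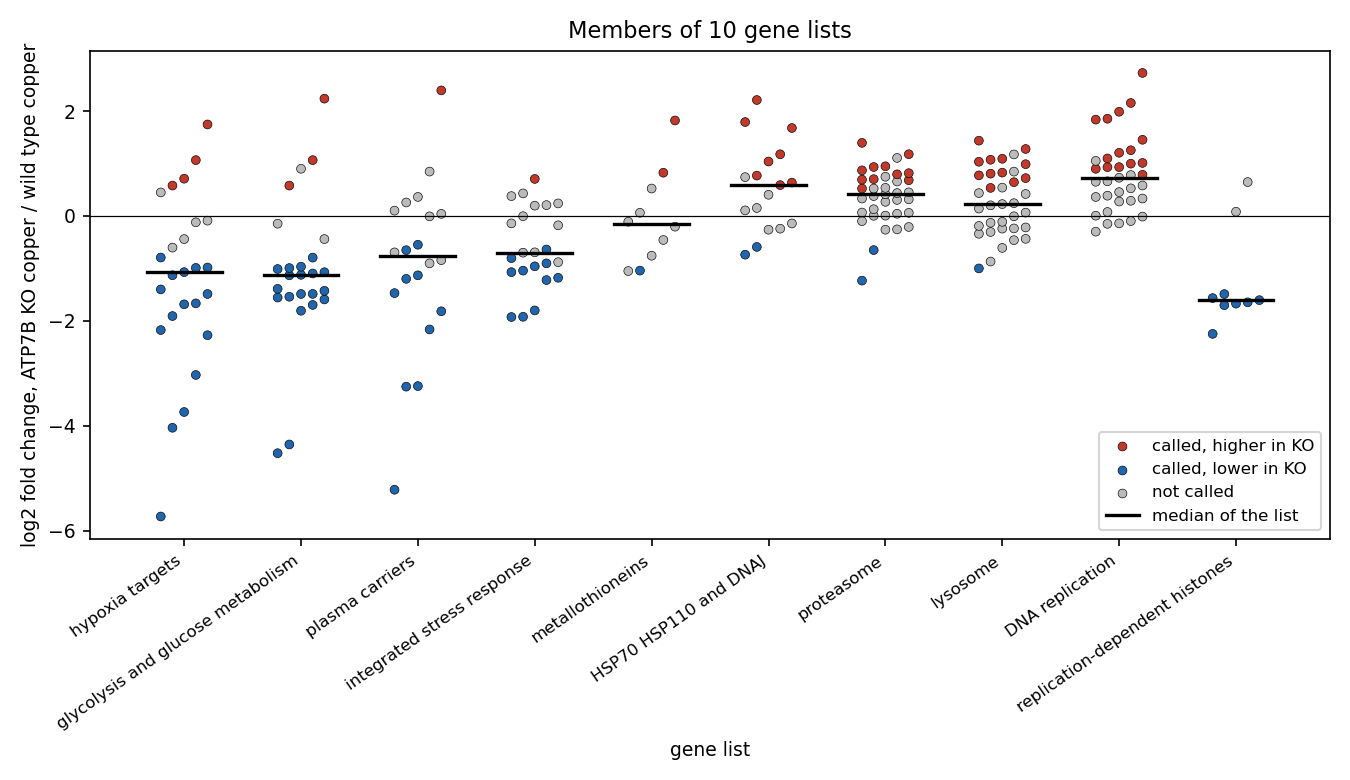
Log2 fold change between ATP7B KO copper and wild type copper (y axis) of each tested member of 10 gene lists (x axis), with called members in red (higher in KO) or blue (lower), others in grey and the list's median as a bar. Medians lie at -1.12 for glycolysis and -1.60 for histones and at 0.73 for DNA replication. Each list except histones and DNA replication holds called members of both signs.

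Copper handling genes did not move as a group. Of the copper transport list, 2 of 17 tested members rose and 4 fell, with a median of -0.21, and with 1 library left out the falls ran from 2 without KO replicate 3 to 5 without wild type replicate 1 or 3, and the rises from 0 without wild type replicate 2 or any 1 KO replicate to 4 without wild type replicate 1. The largest change was in ceruloplasmin. CP was at 8.55, 10.05 and 12.3 CPM in KO and at 80.1, 94.1 and 104 CPM in wild type (log2 fold change -3.25 ± 0.21, adjusted p = 5.3e-05). CP is the ferroxidase of plasma into which ATP7B loads copper, and its groups did not overlap. The plasma membrane importer SLC31A1 was at 95.5, 109 and 93.6 CPM in KO against 175, 147 and 169 CPM in wild type (log2 fold change -0.80 ± 0.16, adjusted p = 0.0068), lower in every KO library. SLC11A2, a divalent metal importer, was at 29.1 ± 3.23 CPM in KO and 49.8 ± 5.06 CPM in wild type (-0.87 ± 0.18). COMMD1, which is involved in copper excretion, was at 27.3 ± 4.15 CPM in KO and 15.2 ± 2.09 CPM in wild type (0.74 ± 0.21), and SCO1, which delivers copper to cytochrome c oxidase, at 53.6 ± 6.88 CPM in KO and 34.6 ± 2.90 CPM in wild type (0.54 ± 0.18). The copper chaperones ATOX1 (-0.41 ± 0.27) and COX19 (-0.42 ± 0.22) and XIAP (-0.21 ± 0.20) overlapped between groups. The call of SLC31A1 ended without KO copper replicate 3 (adjusted p = 0.052). The call of SLC11A2 ended without KO copper replicate 1 or 3 (adjusted p 0.052 to 0.055). The call of COMMD1 ended without KO copper replicate 1, 2 or 3, without wild type copper replicate 2 or with DESeq2 (adjusted p 0.059 to 0.13). The call of SCO1 ended without KO copper replicate 1, 2 or 3, without wild type copper replicate 2 or 3, in the fit of all 12 libraries, with DESeq2 or with no filter on low counts (adjusted p 0.070 to 0.19). COX19 was called without wild type copper replicate 1 (adjusted p = 0.0021).

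Metallothioneins, the small cysteine-rich proteins that bind copper and zinc, went both ways: 2 of 10 tested members rose and 1 fell. Rises went from 1 without wild type replicate 2 or any 1 KO replicate to 2 without wild type replicate 1 or 3 when 1 library was left out. Falls went from 1 without wild type replicate 2 or 3 or any 1 KO replicate to 6 without wild type replicate 1. MT1X was at 141, 145 and 143 CPM in KO and at 274, 287 and 272 CPM in wild type (log2 fold change -1.04 ± 0.14, adjusted p = 0.0013), with no overlap. MT1B was at 166, 155 and 164 CPM in KO and at 20.3, 42.3 and 65.8 CPM in wild type (log2 fold change 1.82 ± 0.33, adjusted p = 0.0046), also with no overlap but the other way. MT1F was at 776, 699.6 and 731 CPM in KO and at 254, 403 and 520.1 CPM in wild type (log2 fold change 0.82 ± 0.24, adjusted p = 0.032). All KO values of MT1F were above the wild type range. The call of MT1F ended without KO copper replicate 1, 2 or 3, without wild type copper replicate 2 or in the fit of all 12 libraries (adjusted p 0.084 to 0.12). Members of this family are near copies of each other, so counts of single members are uncertain.

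The abundant members did not separate the groups. MT2A was at 12119.8, 10424 and 11216 CPM in KO and at 4420.1, 14472 and 17964 CPM in wild type (log2 fold change -0.20 ± 0.41, adjusted p = 0.74), and MT1G was at 3711, 3516 and 3589 CPM in KO and at 2100.1, 5545 and 6415 CPM in wild type (log2 fold change -0.46 ± 0.34, adjusted p = 0.35). MT1E was at 2956, 2571 and 2811 CPM in KO against 639, 3237 and 4657 CPM in wild type (log2 fold change -0.11 ± 0.53, adjusted p = 0.90). In these 3 genes wild type replicate 1 was below the KO libraries and replicates 2 and 3 above them. Without that library, 2 members rose and 6 fell. MT1M (0.52 ± 0.42), MT1A (0.06 ± 0.39), MT1H (-1.05 ± 0.35) and MT1HL1 (-0.76 ± 0.30) were not called. MT2A, MT1G, MT1E, MT1H and MT1HL1 were called without wild type copper replicate 1 (adjusted p 1.8e-06 to 0.027).

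The 250 bases upstream of MT1X and MT1B are shown because these members were called in opposite directions. Capitals mark TGCACNC and TGCGCNC, the core to which the metal-sensing factor MTF-1 binds, on either strand. The intervals are chr16:56682220-56682469, plus strand for MT1X and chr16:56651636-56651885, plus strand for MT1B (RefSeq, GRCh38.p14).

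MT1X: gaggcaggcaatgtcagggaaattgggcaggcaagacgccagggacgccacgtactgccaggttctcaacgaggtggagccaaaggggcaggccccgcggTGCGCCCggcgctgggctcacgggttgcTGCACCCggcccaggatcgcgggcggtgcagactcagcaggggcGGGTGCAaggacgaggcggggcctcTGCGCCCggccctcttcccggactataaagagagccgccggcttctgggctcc

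MT1B: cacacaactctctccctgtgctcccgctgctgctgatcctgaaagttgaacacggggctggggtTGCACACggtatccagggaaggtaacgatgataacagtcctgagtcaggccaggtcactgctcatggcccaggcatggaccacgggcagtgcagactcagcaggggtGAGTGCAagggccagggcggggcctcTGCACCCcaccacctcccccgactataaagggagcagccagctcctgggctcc

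MT1X held 4 matches and MT1B 3, and 29.6% of 35116 promoters held at least 1 in the window from 250 bases before to 50 after the start. These 2 called genes thus both carried the core although MT1X fell and MT1B rose. No promoter was found for MT1F. The core was also in 2 of the 2 promoters found for metallothioneins not called, at a mean of 8 matches. The factor's own gene MTF1 was at 30.9 ± 5.204 CPM in KO and 16.7 ± 5.28 CPM in wild type (0.82 ± 0.27). The call of MTF1 ended without KO copper replicate 1, 2 or 3, without wild type copper replicate 2 or 3, in the fit of all 12 libraries, with relative log expression factors or with DESeq2 (adjusted p 0.051 to 0.17).

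Single zinc and iron genes changed, while the zinc list lay near the background. Of the zinc transport list, 2 of 18 tested members rose and 3 fell, beside 11.6% and 14.9% of all tested genes. With 1 library left out, the rises ran from 0 without wild type replicate 2 or any 1 KO replicate to 4 without wild type replicate 1. The falls ran from 2 without wild type replicate 2 or any 1 KO replicate to 5 without wild type replicate 1. The Golgi and endoplasmic reticulum zinc exporter SLC39A7 was at 20.7, 25.1 and 24.3 CPM in KO against 93.4, 63.2 and 45.7 CPM in wild type (log2 fold change -1.61 ± 0.27, adjusted p = 0.0036), and its wild type values spread widely but stayed above KO. SLC39A10 was at 34.2 ± 4.35 CPM in KO and 76.7 ± 23.8 CPM in wild type (-1.25 ± 0.25). The zinc exporter SLC30A1, a target of MTF-1, was at 43.5, 37.7 and 42.2 CPM in KO against 19.7, 30.9 and 48.0 CPM in wild type and overlapped (log2 fold change 0.22 ± 0.28, adjusted p = 0.59). Of the iron list, 2 of 13 tested members rose and 3 fell. Rises went from 2 without wild type replicate 2 or 3 or any 1 KO replicate to 3 without wild type replicate 1 when 1 library was left out. Falls went from 3 without wild type replicate 2 or 3 or KO replicate 1 or 3 to 7 without wild type replicate 1. Transferrin, the plasma iron carrier, was at 449, 488 and 492 CPM in KO against 1388, 1176 and 1160.0 CPM in wild type (log2 fold change -1.47 ± 0.16, adjusted p = 5.9e-04), without overlap. The transferrin receptor 2 gene TFR2 fell (-1.97 ± 0.29), and the iron exporter SLC40A1 rose (39.6 ± 4.34 CPM in KO and 15.1 ± 2.17 CPM in wild type, 1.31 ± 0.21). HPX, the haem carrier of plasma, rose from a low level (5.19 ± 0.329 CPM in KO and 0.921 ± 0.477 CPM in wild type, 2.39 ± 0.48). With a minimum mean of 10 counts, 1 of 12 tested iron members rose. The ferritin chains FTH1 (0.37 ± 0.18) and FTL (0.11 ± 0.19) and TFRC (-0.14 ± 0.18) were not called. The call of SLC39A10 ended in the fit of all 12 libraries (adjusted p = 0.074). FTH1 was called without wild type copper replicate 1 (adjusted p = 0.0010).

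Several chaperones that answer misfolded protein were higher in KO. Heat shock factor HSF1 drives these genes when unfolded protein accumulates. Of the small heat shock protein list, 3 of 4 tested members rose and 0 fell, and of the HSP70, HSP110 and DNAJ list, 8 of 17 tested members rose and 2 fell, with a median of 0.59, and with 1 library left out the rises of the latter ran from 5 without wild type replicate 2 or any 1 KO replicate to 10 without wild type replicate 1, and the falls from 0 without wild type replicate 2 or any 1 KO replicate to 2 without wild type replicate 1. CRYAB was at 189, 176 and 174 CPM in KO and at 42.7, 37.5 and 34.5 CPM in wild type (log2 fold change 2.15 ± 0.17, adjusted p = 1.6e-04). CRYAB is the small heat shock protein alpha-B-crystallin, which was at 1.39, 1.02 and 0.915 CPM in untreated KO and 0.527, 0.522 and 0.562 CPM in untreated wild type cells. DNAJB1 was at 3983, 3290.2 and 2962 CPM in KO and at 786, 651 and 650.3 CPM in wild type (log2 fold change 2.21 ± 0.20, adjusted p = 2.8e-04). DNAJB1 is the main inducible HSP40 co-chaperone, and every KO library was far above every wild type library.

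BAG3 was at 329, 306 and 282 CPM in KO and at 88.1, 83.2 and 129 CPM in wild type (log2 fold change 1.52 ± 0.20, adjusted p = 0.0012). BAG3 couples HSP70 to small heat shock proteins and to selective autophagy, and it did not overlap. DNAJB6 was at 578, 504 and 449.9 CPM in KO and at 85.9, 149.9 and 182 CPM in wild type (log2 fold change 1.79 ± 0.26, adjusted p = 0.0018). HSPA6 was at 118, 122 and 90.8 CPM in KO and at 36.8, 47.5 and 53.4 CPM in wild type (log2 fold change 1.18 ± 0.20, adjusted p = 0.0037). HSPA6 is a strictly inducible HSP70, and DNAJB6 an anti-aggregation co-chaperone. DNAJA1 (350.1 ± 15.8 CPM in KO and 161 ± 30.8 CPM in wild type, 1.04 ± 0.18) and DNAJB4 (21.4 ± 3.10 CPM in KO and 6.12 ± 2.53 CPM in wild type, 1.68 ± 0.31) rose as well. HSPH1, the HSP110 nucleotide exchange factor, was at 3092, 3717 and 3234 CPM in KO against 2219, 1824 and 1499.6 CPM in wild type (log2 fold change 0.77 ± 0.20, adjusted p = 0.021), and HSPB1, or HSP27, at 262 ± 21.9 CPM in KO and 145 ± 25.6 CPM in wild type (0.77 ± 0.17). The constitutive HSPA8 (0.74 ± 0.26) and HSPA4 (0.15 ± 0.14) and the co-chaperone ST13 (-0.26 ± 0.21) were not called. HSPA1A had 0 counts in every library. It has a near-identical copy in HSPA1B, and reads that match both may not have been counted, so nothing is said of its expression. The call of HSPH1 ended without KO copper replicate 1, 2 or 3 or without wild type copper replicate 2 (adjusted p 0.071 to 0.094). The call of HSPB1 ended without KO copper replicate 1 or 2 or in the fit of all 12 libraries (adjusted p 0.054 to 0.35). HSPA8 was also called with DESeq2 (adjusted p = 0.047), limma voom (0.045), scaling by total counts (0.038) and no filter on low counts (0.0017). HSPA8 was called without wild type copper replicate 1 (adjusted p = 2.2e-06).

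Of the HSP90 and chaperonin list, 5 of 22 tested members rose and 1 fell, and with 1 library left out the rises ran from 2 without wild type replicate 2 or any 1 KO replicate to 10 without wild type replicate 1. HSP90AA1 was at 16830.2, 16976 and 15425 CPM in KO and at 6850.1, 8503 and 8405 CPM in wild type (log2 fold change 0.97 ± 0.18, adjusted p = 0.0052). This inducible HSP90 was higher in all KO libraries, whereas the constitutive HSP90AB1 was at 15101, 15193 and 13797 CPM in KO against 15922, 13373 and 13695 CPM in wild type and overlapped (log2 fold change -0.05 ± 0.18, adjusted p = 0.86). The HSP90 co-chaperone gene CHORDC1 rose (528 ± 45.1 CPM in KO and 192 ± 28.8 CPM in wild type, 1.38 ± 0.17). The mitochondrial chaperonin HSPD1 (-0.16 ± 0.16) and the cytosolic chaperonin subunit CCT5 (-0.02 ± 0.16) were not called, and the mitochondrial HSP90 TRAP1 fell (-0.67 ± 0.16). The call of TRAP1 ended without KO copper replicate 1, 2 or 3, without wild type copper replicate 2 or in the fit of all 12 libraries (adjusted p 0.054 to 0.081). The letters GAANNTTC and TTCNNGAA, a core of the heat shock element searched on both strands, were in the windows of 3 of the 7 rising HSP70 and DNAJ genes found in the table and of 13.5% of all promoters. They were in those of 1 of 5 rising genes of the HSP90 list and of 1 of 2 falling HSP70 and DNAJ genes. DNAJB1, HSPH1 and BAG3 had 0 matches in that window.

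More proteasome genes rose than fell. 11 of 36 tested members rose and 2 fell, with a median of 0.43, and with 1 library left out the rises ran from 5 without any 1 KO replicate to 17 without wild type replicate 1, and the falls from 1 without wild type replicate 2 or any 1 KO replicate to 2 without wild type replicate 1 or 3. PSME3, which encodes the PA28 gamma activator, was at 181, 142 and 158 CPM in KO against 44.3, 52.3 and 75.5 CPM in wild type (log2 fold change 1.39 ± 0.22, adjusted p = 0.0025). PSMD1 was at 584 ± 10.1 CPM in KO and 288 ± 47.9 CPM in wild type (0.93 ± 0.17) and PSMD11 at 358 ± 48.6 CPM in KO and 149 ± 40.5 CPM in wild type (1.18 ± 0.21), both subunits of the regulatory particle. The KO values of these 3 genes lay above all wild type values. NFE2L1, the factor that drives proteasome genes, was lower: 59.5, 65.7 and 68.5 CPM in KO against 165, 126 and 137 CPM in wild type (log2 fold change -1.23 ± 0.17, adjusted p = 0.0015). The core subunits PSMA7 (0.41 ± 0.16) and PSMB5 (-0.21 ± 0.15) and the regulatory subunits PSMC1 (-0.26 ± 0.27) and PSMD2 (0.07 ± 0.20) were not called. Of the ubiquitin and VCP list, 4 of 21 tested members rose and 1 fell (rises with 1 library left out: 2 without KO replicate 1 or 3 to 8 without wild type replicate 1), among them the VCP cofactors UFD1 (216 ± 13.05 CPM in KO and 91.6 ± 27.7 CPM in wild type, 1.15 ± 0.22) and NPLOC4 (151 ± 14.9 CPM in KO and 75.5 ± 6.91 CPM in wild type, 0.92 ± 0.16). VCP itself (0.35 ± 0.15) was not called. VCP, PSMA7 and PSMD2 were called without wild type copper replicate 1 (adjusted p 0.0061 to 0.027).

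Antioxidant genes showed no common direction. HMOX1, the haem oxygenase induced by oxidants and metals, was at 6306, 6449.8 and 6549.6 CPM in KO against 6385, 4409 and 3935 CPM in wild type (log2 fold change 0.30 ± 0.22, adjusted p = 0.33), and the ranges overlapped. Of the haem list, 3 of 15 tested members rose and 1 fell (with 1 library left out, the rises ran from 1 without wild type replicate 2 or any 1 KO replicate to 5 without wild type replicate 1, and the falls from 0 without wild type replicate 2 or any 1 KO replicate to 2 without wild type replicate 1), among them the lysosomal haem transporter SLC48A1 (45.8 ± 6.90 CPM in KO and 17.9 ± 2.299 CPM in wild type, 1.27 ± 0.20). Of the glutathione and thioredoxin list, 1 of 26 tested members rose and 2 fell. With 1 library left out, the rises ran from 0 without wild type replicate 2 or any 1 KO replicate to 5 without wild type replicate 1. The falls ran from 1 without any 1 KO replicate to 4 without wild type replicate 1. GPX4, which reduces lipid peroxides, was at 62.7, 67.0 and 66.5 CPM in KO against 235, 159.9 and 102 CPM in wild type (log2 fold change -1.43 ± 0.28, adjusted p = 0.0065), so all KO values were below wild type values that themselves ranged widely. PRDX1 (0.13 ± 0.17), GCLM (-0.04 ± 0.20), SOD1 (0.17 ± 0.16) and GSR (-0.42 ± 0.24) were not called. Sulfiredoxin SRXN1 was at 927, 677 and 729 CPM in KO against 75.8, 223 and 381 CPM in wild type (log2 fold change 1.70 ± 0.45, adjusted p = 0.023). The call of SRXN1 ended without KO copper replicate 1, 2 or 3, without wild type copper replicate 2, in the fit of all 12 libraries or with no filter on low counts (adjusted p 0.058 to 0.22). Of the NADPH and NRF2 list, 4 of 23 tested members rose and 4 fell, with rises from 2 without wild type replicate 2 or any 1 KO replicate to 6 without wild type replicate 1 and falls from 0 without any 1 KO replicate to 8 without wild type replicate 1 when 1 library was left out. They include the aldo-keto reductase AKR1B10 (75.8 ± 12.6 CPM in KO and 24.1 ± 11.1 CPM in wild type, 1.55 ± 0.30) and the NRF2 partner MAFG (235 ± 17.4 CPM in KO and 76.4 ± 26.9 CPM in wild type, 1.53 ± 0.24), both higher in KO. HMOX1 and SOD1 were called without wild type copper replicate 1 (adjusted p 2.6e-04 to 0.050).

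Genes of the integrated stress response, in which ATF4 raises amino acid synthesis under stress, were more often lower than higher in KO. 1 of 23 tested members rose and 11 fell, with a median of -0.70, and with 1 library left out the falls ran from 6 without KO replicate 3 to 14 without wild type replicate 1. ATF4 was at 841, 782 and 821 CPM in KO and at 1605, 1349 and 1352 CPM in wild type (log2 fold change -0.90 ± 0.16, adjusted p = 0.0048). All KO values of ATF4 lay below all wild type values. DDIT4, an inhibitor of mTORC1 that hypoxia also induces, was at 32.1, 30.6 and 24.7 CPM in KO against 51.8, 130.3 and 131 CPM in wild type (log2 fold change -1.92 ± 0.33, adjusted p = 0.0037). The stress factor NUPR1 (58.8 ± 4.80 CPM in KO and 114 ± 14.5 CPM in wild type, -1.04 ± 0.17) and the glycyl-tRNA synthetase GARS1 (185 ± 16.5 CPM in KO and 339 ± 46.9 CPM in wild type, -0.96 ± 0.17) fell. GDF15, a secreted stress cytokine, was at 1134, 1005 and 1068 CPM in KO against 1969.9, 3932 and 4665 CPM in wild type (log2 fold change -1.80 ± 0.29, adjusted p = 0.0028). TRIB3 (-0.69 ± 0.24), CEBPB (-0.70 ± 0.36) and SESN2 (0.24 ± 0.16) were not called. The call of GDF15 ended in the fit of all 12 libraries (adjusted p = 0.12). TRIB3 and CEBPB were called without wild type copper replicate 1 (adjusted p 1.5e-06 to 6.2e-06).

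Of the amino acid and one-carbon list, 1 of 22 tested members rose and 7 fell, with a median of -0.35, and with 1 library left out the falls ran from 6 without KO replicate 3 to 13 without wild type replicate 1. PHGDH, the first enzyme of serine synthesis, was at 44.9, 58.2 and 58.5 CPM in KO against 127, 115 and 106 CPM in wild type (log2 fold change -1.20 ± 0.17, adjusted p = 0.0018), and PSPH, the last, at 24.9, 26.0 and 33.4 CPM in KO against 80.1, 71.9 and 67.4 CPM in wild type (log2 fold change -1.46 ± 0.19, adjusted p = 0.0010). Neither overlapped between groups. SHMT2 (-0.81 ± 0.15), PYCR1 (-0.99 ± 0.18), CBS (-1.27 ± 0.18) and GPT2 (-1.22 ± 0.16) fell, and ASNS (-0.43 ± 0.23), SLC7A5 (0.13 ± 0.23) and SLC1A5 (-0.40 ± 0.21) were not called. In the endoplasmic reticulum folding list, 3 of 28 tested members rose and 3 fell. Rises went from 0 without wild type replicate 2 or any 1 KO replicate to 6 without wild type replicate 1 when 1 library was left out. Falls went from 1 without wild type replicate 2 or any 1 KO replicate to 6 without wild type replicate 1. ERO1A, the disulfide-forming oxidase, was at 36.0, 33.9 and 37.0 CPM in KO against 89.7, 141 and 137 CPM in wild type (log2 fold change -1.86 ± 0.20, adjusted p = 5.4e-04), below wild type in all libraries, and HSPA5, the chaperone BiP, was at 2351, 2167 and 2279 CPM in KO against 1881, 2079.7 and 2260.3 CPM in wild type and overlapped (log2 fold change 0.04 ± 0.16, adjusted p = 0.87). ASNS and SLC1A5 were called without wild type copper replicate 1 (adjusted p 1.0e-04 to 6.1e-04).

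Several readouts of growth factor signalling fell, although more members of the immediate early gene list rose than fell. EGR1, an immediate early factor downstream of ERK, was at 45.2, 54.0 and 51.0 CPM in KO against 167, 173 and 153 CPM in wild type (log2 fold change -1.80 ± 0.16, adjusted p = 2.6e-04), and its groups were far apart. Of the list of dual specificity phosphatases and Sprouty proteins, which ERK induces and which feed back on it, 0 of 11 tested members rose and 5 fell, and with 1 library left out the falls ran from 3 without wild type replicate 2 or any 1 KO replicate to 6 without wild type replicate 1. DUSP6 was at 195, 192 and 194 CPM in KO against 357, 308 and 448 CPM in wild type (log2 fold change -1.02 ± 0.18, adjusted p = 0.0037), SPRY1 at 12.3 ± 2.70 CPM in KO and 38.7 ± 7.65 CPM in wild type (-1.73 ± 0.25) and SPRY4 at 11.8 ± 3.20 CPM in KO and 41.1 ± 16.2 CPM in wild type (-1.88 ± 0.33). Of the list of EGR1 and other immediate early genes, 5 of 15 tested members rose and 2 fell. With 1 library left out, the rises ran from 2 without KO replicate 1 to 6 without wild type replicate 1 or 3. The falls ran from 1 without wild type replicate 1 or 2 or any 1 KO replicate to 2 without wild type replicate 3. The small GTPase RRAD rose (431 ± 13.4 CPM in KO and 199.6 ± 22.3 CPM in wild type, 1.03 ± 0.15). Of AP-1 factors, 1 of 11 tested members rose and 4 fell (falls with 1 library left out: 2 without wild type replicate 2 or any 1 KO replicate to 6 without wild type replicate 1), MAFK (-1.05 ± 0.16) and JDP2 (-1.18 ± 0.19) having the smallest adjusted p-values. JUN was at 373 ± 34.6 CPM in KO and 503 ± 43.8 CPM in wild type (-0.52 ± 0.16). The call of JUN ended without KO copper replicate 1, 2 or 3, without wild type copper replicate 2, in the fit of all 12 libraries, with scaling by total counts or with no filter on low counts (adjusted p 0.052 to 0.19).

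Some targets of p53, stress kinases and NF-kappaB rose. Of the GADD45 and p53 list, 7 of 25 tested members rose and 2 fell, and with 1 library left out the rises ran from 5 without wild type replicate 2 or any 1 KO replicate to 12 without wild type replicate 1, and the falls from 0 without wild type replicate 2 or any 1 KO replicate to 3 without wild type replicate 1 or 3. GADD45B was at 377, 325 and 278 CPM in KO and at 85.9, 121 and 149 CPM in wild type (log2 fold change 1.38 ± 0.22, adjusted p = 0.0028), without overlap. The p53-induced kinase PLK2 (21.6 ± 2.71 CPM in KO and 6.23 ± 2.74 CPM in wild type, 1.66 ± 0.31) and GADD45G (115 ± 10.6 CPM in KO and 49.6 ± 13.9 CPM in wild type, 1.12 ± 0.21) rose, and CDKN1A (0.38 ± 0.14), GADD45A (-0.08 ± 0.14) and BAX (-0.57 ± 0.25) were not called. Of the NF-kappaB list, 5 of 15 tested members rose and 1 fell, and with 1 library left out the rises ran from 2 without wild type replicate 2 or any 1 KO replicate to 7 without wild type replicate 1 or 3. BIRC3 was at 31.0, 28.05 and 30.7 CPM in KO and at 4.27, 4.36 and 5.42 CPM in wild type (log2 fold change 2.57 ± 0.24, adjusted p = 2.8e-04). BIRC3 encodes the survival protein cIAP2, and CXCL8, the chemokine interleukin 8, was at 20.7, 26.0 and 20.3 CPM in KO against 1.601, 5.23 and 5.42 CPM in wild type (log2 fold change 2.3 ± 0.34, adjusted p = 0.0021). Both were higher in every KO library. Of the BCL2 family, 3 of 15 tested members rose and 1 fell. With 1 library left out, the rises ran from 1 without KO replicate 1 to 4 without wild type replicate 1 or 3. The falls ran from 0 without KO replicate 3 to 4 without wild type replicate 3. The pro-apoptotic HRK rose from a low level (7.32 ± 2.40 CPM in KO and 1.18 ± 0.121 CPM in wild type, 2.50 ± 0.46). The anti-apoptotic BCL2L1 was lower, at 361, 357 and 358 CPM in KO against 787, 524 and 613 CPM in wild type (log2 fold change -0.93 ± 0.19, adjusted p = 0.0076), and MCL1 (-0.27 ± 0.26) and BBC3 (-0.83 ± 0.39) were not called. The call of BCL2L1 ended without KO copper replicate 3 or in the fit of all 12 libraries (adjusted p 0.051 to 0.18). CDKN1A, MCL1 and BBC3 were called without wild type copper replicate 1 (adjusted p 5.0e-07 to 0.034). BAX was called without wild type copper replicate 3 (adjusted p = 0.048).

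Autophagy genes showed few calls. In autophagy, LC3 proteins and receptors such as SQSTM1 bring cargo into vesicles that fuse with lysosomes, and TFEB switches on the lysosomal genes. Of receptors and the LC3 family, 1 of 19 tested members rose and 3 fell (falls with 1 library left out: 2 without any 1 KO replicate to 4 without wild type replicate 1 or 3), and of the core machinery, 2 of 32 tested members rose and 5 fell, with medians of 0.12 and -0.05. With 1 library left out the falls in the core machinery ran from 3 without wild type replicate 2 or any 1 KO replicate to 7 without wild type replicate 1, and the rises from 0 without wild type replicate 2 or any 1 KO replicate to 3 without wild type replicate 1. SQSTM1 was at 1370.2, 1624 and 1592 CPM in KO and at 1584, 1099.8 and 906 CPM in wild type (log2 fold change 0.26 ± 0.23, adjusted p = 0.42), with overlap. MAP1LC3B was at 373, 346 and 311 CPM in KO and at 73.1, 146 and 179.7 CPM in wild type (log2 fold change 1.28 ± 0.28, adjusted p = 0.011). All KO values of MAP1LC3B lay above the wild type range. GABARAPL1, another LC3 relative, was at 239, 262 and 238 CPM in KO against 225, 249.7 and 241 CPM in wild type (log2 fold change -0.04 ± 0.14, adjusted p = 0.86), and the groups overlapped. The call of MAP1LC3B ended without KO copper replicate 1 (adjusted p = 0.058). SQSTM1 was called without wild type copper replicate 1 (adjusted p = 5.6e-04).

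The receptors that fell included the mitophagy pair BNIP3 and BNIP3L, which are also hypoxia targets. BNIP3L was at 38.1, 33.1 and 38.2 CPM in KO against 55.5, 98.0 and 119 CPM in wild type (log2 fold change -1.40 ± 0.26, adjusted p = 0.0052). GABARAP was at 96.2 ± 12.7 CPM in KO and 154 ± 30.9 CPM in wild type (-0.77 ± 0.19). In the core machinery, WIPI1, which binds the lipid of the forming vesicle, was at 29.9, 38.9 and 37.8 CPM in KO against 99.3, 109 and 109.6 CPM in wild type (log2 fold change -1.67 ± 0.17, adjusted p = 3.8e-04). ATG9A, which brings membrane to it, was at 110.4, 111 and 125 CPM in KO against 376, 262 and 232 CPM in wild type (log2 fold change -1.42 ± 0.21, adjusted p = 0.0019), and neither overlapped. BECN1 (0.20 ± 0.15), VMP1 (-0.06 ± 0.15), RB1CC1 (-0.27 ± 0.15) and RAB7A (0.06 ± 0.15) were not called. The call of GABARAP ended without KO copper replicate 1, 2 or 3 or in the fit of all 12 libraries (adjusted p 0.058 to 0.099).

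Of the TFEB and mTORC1 list, 4 of 20 tested members rose and 2 fell, and with 1 library left out the rises ran from 3 without wild type replicate 2 or KO replicate 1 or 2 to 5 without wild type replicate 3, and the falls from 1 without any 1 KO replicate to 3 without wild type replicate 1. TFEB mRNA was low and lower in KO, at 0.712, 2.51 and 3.58 CPM in KO against 16.5, 7.41 and 6.97 CPM in wild type (log2 fold change -2.24 ± 0.55, adjusted p = 0.017), with no overlap. The call of TFEB ended without KO copper replicate 1 or 2 (adjusted p 0.058 to 0.076). TFE3, its relative, was at 76.2, 78.3 and 76.4 CPM in KO against 50.7, 68.0 and 83.7 CPM in wild type (log2 fold change 0.10 ± 0.19, adjusted p = 0.73) and overlapped. Parts of the complex that holds mTORC1 at the lysosome rose: RRAGC was at 139, 118 and 106 CPM in KO against 44.3, 50.5 and 52.3 CPM in wild type (log2 fold change 1.21 ± 0.18, adjusted p = 0.0019), LAMTOR1 at 184 ± 18.2 CPM in KO and 67.2 ± 23.2 CPM in wild type (1.36 ± 0.25) and LAMTOR3 at 28.5 ± 2.18 CPM in KO and 9.62 ± 3.26 CPM in wild type (1.45 ± 0.26). LAMTOR5 was lower (-0.76 ± 0.16). The call of LAMTOR5 ended without KO copper replicate 3 or in the fit of all 12 libraries (adjusted p 0.054 to 0.058).

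Lysosomal rises depended on which libraries were used. 12 of 36 tested members rose and 1 fell, with a median of 0.23, and with 1 library left out the rises ran from 1 without KO replicate 1 to 17 without wild type replicate 1. Without KO replicate 1, 2 or 3, lysosomal rises were thus 1, 2 and 2 of 36, beside 436 of 10466, 578 of 10504 and 515 of 10438 of all tested genes. In the fit of all 12 libraries they were 2 of 36, beside 638 of 11051. LAMP1, a major membrane protein of the lysosome, was at 719, 684 and 637 CPM in KO against 309.5, 371 and 405 CPM in wild type (log2 fold change 0.83 ± 0.16, adjusted p = 0.0068). ATP6V1D, a subunit of the proton pump, was at 74.4 ± 5.54 CPM in KO and 33.2 ± 10.3 CPM in wild type (1.07 ± 0.23), and the hydrolases HEXA (81.8 ± 5.53 CPM in KO and 43.9 ± 12.2 CPM in wild type, 0.81 ± 0.21) and GLA (1.28 ± 0.33) rose. The abundant PSAP (-0.01 ± 0.19), CTSD (-0.34 ± 0.27) and ATP6V0C (-0.46 ± 0.26) were not called. The call of LAMP1 ended in the fit of all 12 libraries (adjusted p = 0.076). The call of ATP6V1D ended without KO copper replicate 1 (adjusted p = 0.054). The call of HEXA ended without KO copper replicate 1, 2 or 3 (adjusted p 0.075 to 0.088). The call of GLA ended without KO copper replicate 1, 2 or 3, without wild type copper replicate 2 or in the fit of all 12 libraries (adjusted p 0.065 to 0.16).

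Many mRNAs of proteins that hepatocytes secrete into plasma were lower in KO. Of plasma carriers, 1 of 20 tested members rose and 10 fell, with a median of -0.77, and with 1 library left out the falls ran from 8 without wild type replicate 2 or any 1 KO replicate to 12 without wild type replicate 1. Fetuin A, AHSG, was at 1212, 1099 and 1139 CPM in KO against 3415, 4066 and 3991 CPM in wild type (log2 fold change -1.82 ± 0.17, adjusted p = 3.0e-04), and the retinol carrier RBP4 at 133, 145 and 149 CPM in KO against 283, 323 and 276 CPM in wild type (log2 fold change -1.13 ± 0.15, adjusted p = 0.0011). The protease inhibitor SERPINA1 was at 179 ± 8.42 CPM in KO and 387 ± 54.2 CPM in wild type (-1.20 ± 0.17). Others did not pass the test: AFP was at 1222, 1049 and 1096 CPM in KO against 1259, 1440.1 and 2444 CPM in wild type (log2 fold change -0.69 ± 0.25, adjusted p = 0.068), TTR at 177 ± 11.9 CPM in KO and 140.1 ± 17.7 CPM in wild type (0.26 ± 0.16) and AMBP at 1395 ± 75.2 CPM in KO and 1324 ± 265 CPM in wild type (-0.01 ± 0.19). Of the hepatocyte identity list, 0 of 15 tested members rose and 8 fell, and with 1 library left out the falls ran from 6 without KO replicate 1 or 3 to 11 without wild type replicate 1. AFP was called without wild type copper replicate 1 (adjusted p = 0.012).

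Of apolipoproteins and their partners, 0 of 14 tested members rose and 7 fell, and with 1 library left out the falls ran from 5 without KO replicate 1 or 3 to 9 without wild type replicate 1. MTTP, which loads lipid onto nascent lipoproteins, was at 5.34, 4.61 and 5.57 CPM in KO against 30.4, 23.1 and 26.7 CPM in wild type (log2 fold change -2.44 ± 0.25, adjusted p = 3.8e-04). APOL1 (77.6 ± 20.2 CPM in KO and 264 ± 81.6 CPM in wild type, -1.86 ± 0.27) and APOC3 (10.8 ± 1.04 CPM in KO and 25.5 ± 1.502 CPM in wild type, -1.33 ± 0.21) fell, APOA1 was at 228 ± 3.74 CPM in KO and 350.1 ± 22.1 CPM in wild type (-0.71 ± 0.14), and APOB (-0.26 ± 0.20), APOE (-0.73 ± 0.27) and APOH (0.09 ± 0.28) were not called. The call of APOA1 ended without KO copper replicate 1 or 3 or in the fit of all 12 libraries (adjusted p 0.051 to 0.054). Of coagulation, fibrinogen and complement genes, 1 of 20 tested members rose and 8 fell, and with 1 library left out the falls ran from 6 without KO replicate 1 to 11 without wild type replicate 3. Clotting factor VII, F7, was at 3.92, 3.35 and 4.38 CPM in KO against 33.6, 24.8 and 24.8 CPM in wild type (log2 fold change -2.90 ± 0.27, adjusted p = 3.0e-04), and the fibrinogen alpha chain FGA at 123, 130.2 and 139.7 CPM in KO against 416, 369 and 351 CPM in wild type (log2 fold change -1.62 ± 0.15, adjusted p = 3.0e-04). Neither overlapped. F10 (-1.60 ± 0.19), SERPIND1 (-1.92 ± 0.18) and FGG (-1.16 ± 0.18) fell, and FGB (-0.27 ± 0.16), F2 (-0.05 ± 0.21) and C3 (-0.47 ± 0.20) were not called. The complement protease C1S rose (52.4 ± 1.74 CPM in KO and 13.9 ± 3.43 CPM in wild type, 1.83 ± 0.21). Of acute phase and SOCS genes, 1 of 13 tested members rose and 2 fell (with 1 library left out, the rises ran from 1 without wild type replicate 2 or any 1 KO replicate to 3 without wild type replicate 3, and the falls from 1 without wild type replicate 2 or any 1 KO replicate to 4 without wild type replicate 1), and LRG1, an acute phase glycoprotein, fell (24.0 ± 2.33 CPM in KO and 85.7 ± 10.3 CPM in wild type, -1.92 ± 0.18). APOB and APOE were called without wild type copper replicate 1 (adjusted p 0.030 to 0.037). APOE and C3 were called without wild type copper replicate 3 (adjusted p 0.010 to 0.046).

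Of hepatocyte transcription factors, 2 of 18 tested members rose and 6 fell, and with 1 library left out the falls ran from 2 without KO replicate 3 to 9 without wild type replicate 1 or 3, and the rises from 0 without any 1 KO replicate to 4 without wild type replicate 1. PPARA, the fatty acid receptor, was at 13.5, 13.4 and 14.7 CPM in KO against 82.2, 65.4 and 53.1 CPM in wild type (log2 fold change -2.35 ± 0.22, adjusted p = 3.0e-04), and its partner RXRA at 32.4, 31.8 and 37.8 CPM in KO against 132, 103 and 87.5 CPM in wild type (log2 fold change -1.74 ± 0.20, adjusted p = 7.0e-04). Both were lower in every KO library. FOXA2 (-0.55 ± 0.19), PROX1 (-0.49 ± 0.18) and NR0B2 (-0.54 ± 0.34) were not called. CEBPA was higher, at 35.5 ± 4.07 CPM in KO and 13.4 ± 6.56 CPM in wild type (1.29 ± 0.32). Of drug and bile acid genes, 6 of 14 tested members rose and 3 fell, and with 1 library left out the rises ran from 1 without KO replicate 1 or 3 to 8 without wild type replicate 1, and the falls from 1 without KO replicate 1 or 3 to 4 without wild type replicate 1. The phospholipid exporter ABCB4 fell (8.78 ± 0.722 CPM in KO and 28.8 ± 6.52 CPM in wild type, -1.78 ± 0.25), and CYP1A1, the target of the aryl hydrocarbon receptor, rose from a low level (7.04 ± 0.573 CPM in KO and 1.28 ± 0.649 CPM in wild type, 2.28 ± 0.42). The call of CEBPA ended without KO copper replicate 1, 2 or 3 or in the fit of all 12 libraries (adjusted p 0.051 to 0.23). FOXA2, NR0B2 and PROX1 were called without wild type copper replicate 1 (adjusted p 1.9e-04 to 0.021). PROX1 was called without wild type copper replicate 3 (adjusted p = 0.037).

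The growth factor gene IGF2 and IGFBP1, whose product binds insulin-like growth factors, fell. IGF2 was at 1311, 1826 and 1212 CPM in KO and at 11859.9, 6943 and 6339 CPM in wild type (log2 fold change -2.62 ± 0.30, adjusted p = 6.4e-04), and IGFBP1 was at 517, 479 and 421 CPM in KO and at 1183, 2620.0 and 3620.1 CPM in wild type (log2 fold change -2.47 ± 0.35, adjusted p = 0.0018). Wild type replicates ranged widely in both, replicate 1 being the highest for IGF2 and the lowest for IGFBP1, and all lay above KO. The imprinted gene PEG3 was at 145, 169 and 167 CPM in KO against 442, 409.6 and 395 CPM in wild type (log2 fold change -1.46 ± 0.15, adjusted p = 4.4e-04). Over the whole list of oncofetal and line marker genes, 5 of 26 tested members rose and 9 fell, and with 1 library left out the rises ran from 3 without KO replicate 1 or 3 to 7 without wild type replicate 1 and the falls from 6 without wild type replicate 2 or any 1 KO replicate to 10 without wild type replicate 1. Of keratins and progenitor markers, 2 of 15 tested members rose and 4 fell (falls with 1 library left out: 1 without KO replicate 1 to 5 without wild type replicate 3, and rises: 0 without KO replicate 2 or 3 to 6 without wild type replicate 1), with SOX4 at 200.4 ± 13.2 CPM in KO and 359 ± 58.2 CPM in wild type (-0.93 ± 0.17) and KRT8 (-0.43 ± 0.18), KRT18 (0.38 ± 0.16) and KRT19 (0.20 ± 0.15) not called. Scaled by total counts alone, 4 members of the keratin list rose and 3 fell. The call of SOX4 ended in the fit of all 12 libraries (adjusted p = 0.16). KRT18 was called without wild type copper replicate 1 (adjusted p = 0.0033). KRT8 was called without wild type copper replicate 3 (adjusted p = 0.029).

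Members of several branches of lipid metabolism fell. Of cholesterol synthesis, 1 of 27 tested members rose and 10 fell, and with 1 library left out the falls ran from 4 without KO replicate 2 to 15 without wild type replicate 1. SQLE, the squalene epoxidase, was at 51.6, 45.2 and 57.3 CPM in KO against 111, 121 and 119 CPM in wild type (log2 fold change -1.27 ± 0.16, adjusted p = 9.9e-04), and MSMO1 at 69.9 ± 6.98 CPM in KO and 180.2 ± 14.8 CPM in wild type (-1.45 ± 0.16). FDPS, which makes farnesyl diphosphate, was at 136 ± 21.6 CPM in KO and 304 ± 19.1 CPM in wild type (-1.24 ± 0.17). IDI1 moved the other way (41.8 ± 1.94 CPM in KO and 18.8 ± 4.35 CPM in wild type, 1.05 ± 0.21), and HMGCS1 (0.78 ± 0.35) was not called. The call of IDI1 ended in the fit of all 12 libraries (adjusted p = 0.060). HMGCS1 was called without wild type copper replicate 3 (adjusted p = 0.011).

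Of fatty acid oxidation and PPARA targets, 3 of 22 tested members rose and 11 fell, and with 1 library left out the falls ran from 6 without KO replicate 1 to 13 without wild type replicate 1, and the rises from 1 without any 1 KO replicate to 3 without wild type replicate 1 or 3. The lipid droplet protein PLIN2 was at 734, 672 and 647 CPM in KO against 1389, 1558 and 1720.0 CPM in wild type (log2 fold change -1.27 ± 0.17, adjusted p = 0.0012), and the fatty acid carrier FABP1 at 18.9, 14.2 and 15.9 CPM in KO against 39.5, 123 and 203 CPM in wild type (log2 fold change -2.98 ± 0.50, adjusted p = 0.0035). ANGPTL4 (-2.93 ± 0.43) fell and the acyl-CoA synthetase ACSL1 rose (1.79 ± 0.29). The mitochondrial enzymes HADHA (-0.41 ± 0.21), ACADVL (-0.16 ± 0.24) and ACADM (0.08 ± 0.23) were not called. Of fatty acid and triglyceride synthesis, 5 of 22 tested members rose and 9 fell, and with 1 library left out the rises ran from 1 without any 1 KO replicate to 6 without wild type replicate 1 and the falls from 7 without KO replicate 2 to 11 without wild type replicate 1. AGPAT2, which makes phosphatidic acid, was at 2.85, 2.93 and 3.98 CPM in KO against 47.0, 30.1 and 29.05 CPM in wild type (log2 fold change -3.50 ± 0.32, adjusted p = 2.7e-04), and LPIN2, the next enzyme, at 36.3, 51.9 and 54.5 CPM in KO against 232, 203 and 192 CPM in wild type (log2 fold change -2.22 ± 0.19, adjusted p = 2.6e-04). PNPLA3, a droplet lipase, was at 6.77, 6.70 and 7.56 CPM in KO against 57.6, 23.1 and 28.7 CPM in wild type (log2 fold change -2.44 ± 0.38, adjusted p = 0.0025). These 3 genes did not overlap between groups, and SCD (-0.90 ± 0.31), ACLY (-0.12 ± 0.16) and FADS1 (-0.07 ± 0.19) were not called. ACADVL and SCD were called without wild type copper replicate 1 (adjusted p 1.8e-07 to 0.025).

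Many DNA replication genes rose in KO while histone genes fell. Of the replication list, 15 of 35 tested members rose and 0 fell, with a median of 0.73, and with 1 library left out the rises ran from 10 without KO replicate 1 to 21 without wild type replicate 1. RRM2, the regulated subunit of ribonucleotide reductase, was at 169, 165 and 177 CPM in KO against 38.4, 71.9 and 65.1 CPM in wild type (log2 fold change 1.45 ± 0.22, adjusted p = 0.0021). The factor E2F2 was at 18.2, 19.3 and 24.7 CPM in KO against 4.80, 4.36 and 5.42 CPM in wild type (log2 fold change 1.99 ± 0.26, adjusted p = 0.0012), and CDC6, which loads the replicative helicase, at 94.0, 105 and 114 CPM in KO against 48.6, 52.7 and 44.9 CPM in wild type (log2 fold change 1.01 ± 0.16, adjusted p = 0.0026). Each KO value exceeded each wild type value in these 3 genes. ORC6 (1.10 ± 0.17) and GINS3 (1.85 ± 0.29) rose, and the abundant helicase subunits MCM3 (-0.01 ± 0.17) and MCM4 (0.29 ± 0.17) were not called. Of mitosis genes, 7 of 34 tested members rose and 1 fell, and with 1 library left out the rises ran from 2 without any 1 KO replicate to 9 without wild type replicate 3. The kinetochore proteins CENPE (61.7 ± 12.5 CPM in KO and 22.7 ± 2.76 CPM in wild type, 1.35 ± 0.21) and CENPF (96.7 ± 23.5 CPM in KO and 40.2 ± 7.56 CPM in wild type, 1.17 ± 0.23) rose, and TOP2A (-0.14 ± 0.18) and AURKA (0.49 ± 0.25) were not called. MCM4 was called without wild type copper replicate 1 (adjusted p = 0.0033). AURKA was called without wild type copper replicate 3 (adjusted p = 0.045).

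Histone mRNAs made in S phase mostly lack a polyadenylated tail, and the assay reads polyadenylated ends. Of the histone list, 0 of 9 tested members rose and 7 fell, and with 1 library left out the falls ran from 3 without KO replicate 1 or 3 to 7 without wild type replicate 1 or 3. H4C3 was at 655, 937 and 856 CPM in KO against 3017, 2228 and 1741 CPM in wild type (log2 fold change -1.60 ± 0.24, adjusted p = 0.0022), and the linker histone H1-2 at 79.1, 90.0 and 85.6 CPM in KO against 253, 213 and 207 CPM in wild type (log2 fold change -1.49 ± 0.16, adjusted p = 5.3e-04). Both were lower in every KO library. H2BC4 fell (7.34 ± 1.38 CPM in KO and 21.8 ± 6.06 CPM in wild type, -1.65 ± 0.29), and H2AC6 (0.08 ± 0.24) was not called. SLBP, which binds the stem-loop that ends these mRNAs in place of a tail, was higher: 31.7, 29.3 and 35.03 CPM in KO against 13.9, 12.6 and 12.8 CPM in wild type (log2 fold change 1.20 ± 0.20, adjusted p = 0.0031). Histone genes are near copies, so single members are uncertain. The summed level of the list was 862 to 1163 CPM in KO and 2301 to 3507 CPM in wild type.

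Mitochondrial and ribosomal lists lay close to the background or below it with all 6 libraries. Of nuclear respiratory chain genes, 3 of 50 tested members rose and 2 fell (with 1 library left out, the rises ran from 0 without wild type replicate 2 or any 1 KO replicate to 11 without wild type replicate 3, and the falls from 0 without any 1 KO replicate to 9 without wild type replicate 1). Of mitochondrially encoded genes, 0 of 13 tested members rose and 2 fell (with 1 library left out, the rises ran from 0 without wild type replicate 2 or any 1 KO replicate to 4 without wild type replicate 1, and the falls from 0 without wild type replicate 2 or any 1 KO replicate to 2 without wild type replicate 1 or 3), or 2 and 1 when scaled by total counts alone. Of lipoylation and iron-sulfur genes, which include proteins that excess copper is known to aggregate, 3 of 20 tested members rose and 3 fell. Rises went from 0 without wild type replicate 2 or any 1 KO replicate to 6 without wild type replicate 1 when 1 library was left out. Falls went from 2 without wild type replicate 3 or any 1 KO replicate to 3 without wild type replicate 1 or 2. LIAS, the lipoic acid synthase, was at 7.12, 10.05 and 8.76 CPM in KO against 20.8, 18.7 and 16.7 CPM in wild type (log2 fold change -1.20 ± 0.24, adjusted p = 0.0072), and GLRX5, which passes on iron-sulfur clusters, at 151, 124 and 152 CPM in KO against 349, 321 and 298 CPM in wild type (log2 fold change -1.26 ± 0.16, adjusted p = 0.0010). All KO values of both were below all wild type values. The lipoylated enzyme DLAT was higher (23.8 ± 4.44 CPM in KO and 12.4 ± 3.42 CPM in wild type, 0.84 ± 0.26). The call of DLAT ended without KO copper replicate 1, 2 or 3, without wild type copper replicate 2, in the fit of all 12 libraries or with DESeq2 (adjusted p 0.058 to 0.30). Of ribosomal protein genes, 1 of 58 tested members rose and 8 fell, with RPL12 at 636 ± 27.7 CPM in KO and 1192 ± 156 CPM in wild type (-1.0 ± 0.17). With 1 library left out, ribosomal falls ran from 1 without KO replicate 1 to 23 without wild type replicate 1. The 23 of 58 stood beside 2173 of 10500 of all tested genes, and the 11 of 50 respiratory chain rises without wild type replicate 3 beside 1581 of 10499.

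Matrix and plasticity genes moved both ways. Of this list, 4 of 21 tested members rose and 4 fell, and with 1 library left out the rises ran from 3 without wild type replicate 2 or any 1 KO replicate to 5 without wild type replicate 1 and the falls from 2 without any 1 KO replicate to 7 without wild type replicate 1. SNAI1, a repressor of epithelial genes, was at 70.9, 46.9 and 52.95 CPM in KO against 5.34, 6.54 and 15.1 CPM in wild type (log2 fold change 2.53 ± 0.35, adjusted p = 0.0016), and TAGLN, an actin-binding protein of contractile cells, at 71.9, 67.8 and 61.3 CPM in KO against 11.7, 7.84 and 12.8 CPM in wild type (log2 fold change 2.54 ± 0.23, adjusted p = 2.6e-04). Both were higher in all KO libraries. COL4A2 rose (17.0 ± 2.72 CPM in KO and 4.21 ± 1.05 CPM in wild type, 1.89 ± 0.29), and TGFB1 (17.0 ± 3.75 CPM in KO and 56.2 ± 17.0 CPM in wild type, -1.81 ± 0.27) and the integrin ITGA2 (187 ± 30.7 CPM in KO and 470.4 ± 60.9 CPM in wild type, -1.42 ± 0.18) fell. The abundant FN1 (-0.12 ± 0.26) was not called. Of the stromal markers, 1 of 5 tested members rose and 1 fell. COL1A1 was at 7.48, 6.70 and 37.8 CPM in KO against 20.8, 10.9 and 3.49 CPM in wild type and overlapped (log2 fold change 0.52 ± 0.73, adjusted p = 0.63). Of the endothelial markers only LYVE1 was tested, with 1 count in the wild type libraries together and a ratio of KO to wild type of 58.7 (exact 95% counting interval 10.2 to 2352). Of the white blood cell markers, 0 of 3 tested members rose and 3 fell (falls with 1 library left out: 1 without any 1 KO replicate to 3 without wild type replicate 1 or 3), CD68 among them (-1.06 ± 0.31). LYZ (199 ± 18.8 CPM in KO and 560.4 ± 285 CPM in wild type, -1.57 ± 0.34) was lower in every KO library. The call of LYZ ended without KO copper replicate 1, 2 or 3 (adjusted p 0.052 to 0.054). The call of CD68 ended without KO copper replicate 1, 2 or 3, without wild type copper replicate 2 or in the fit of all 12 libraries (adjusted p 0.066 to 0.12). FN1 was called without wild type copper replicate 1 (adjusted p = 0.0078).

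Without copper, 1421 of 10742 tested genes were called between ATP7B KO and wild type (13.2%), 910 higher (8.47%) and 511 lower (4.76%) in KO. Of the 9806 genes tested in both comparisons, 538 were called in both, 509 of them in the same direction (219 higher, 290 lower) and 29 in opposite directions. The 509 were 20% of the genes called in copper and 40.5% of those called untreated. Of genes called in copper, 65.5% had the same sign untreated, against 48.3% of those not called. Scaled by total counts alone, 75.7% of the calls were higher in KO in place of 64.0%. The untreated calls rested on few libraries: 6 to 9 were made when any wild type untreated replicate was left out, 132 and 305 without KO untreated replicate 1 or 2 and 7127 without replicate 3. The spread among untreated libraries, as a biological coefficient of variation, was 35.7% against 20.1% in copper.

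Hypoxia targets were among the genes lower in both settings. Of list members tested in copper, untreated KO was lower for 19 of 25 hypoxia and 12 of 25 glycolysis members, and higher for 0 of each. In the DNA replication list it was higher for 11 of 35 and lower for 0, and in the histone list higher for 0 and lower for 2 of 9. Untreated, 8.47% of all tested genes were called higher and 4.76% lower. Untreated NDRG1 was at 56.8, 74.7 and 146 CPM in KO and 1125, 1081 and 1023 CPM in wild type (-3.63 ± 0.38, adjusted p = 0.0071), MXI1 at 8.31, 5.12 and 15.0 CPM in KO and 77.8, 90.1 and 85.1 CPM in wild type (-3.16 ± 0.36, adjusted p = 0.0089) and BNIP3 at 43.6, 57.3 and 62.6 CPM in KO and 288, 308 and 339 CPM in wild type (-2.59 ± 0.24, adjusted p = 0.0052). No KO value reached the wild type range in these 3 genes. The chaperone genes DNAJB1 and BAG3 had a called interaction, a test of whether the genotype difference differed between the settings. It was called for 2 of 17 tested members of the HSP70, HSP110 and DNAJ list. Of the small heat shock protein list it was called for 1 of 4. Of the HSP90 and chaperonin list it was called for 0 of 22, beside 4.93% of all tested genes. Untreated DNAJB1 was at 122, 109.6 and 316 CPM in KO and 126, 136 and 117 CPM in wild type and was not called (0.43 ± 0.39, adjusted p = 0.44; interaction 1.88 ± 0.47, adjusted p = 0.045), and BAG3 was at 9.70, 11.3 and 26.2 CPM in KO and 19.8, 15.1 and 18.2 CPM in wild type (-0.21 ± 0.39, adjusted p = 0.71; interaction 1.81 ± 0.43, adjusted p = 0.041), with overlap. HMOX1 was higher in KO untreated, at 1369.7, 1173 and 617 CPM in KO and 259, 264 and 296 CPM in wild type (1.90 ± 0.38, adjusted p = 0.027), as was SQSTM1, at 808, 744 and 299 CPM in KO and 151, 149 and 165 CPM in wild type (1.95 ± 0.43, adjusted p = 0.033), while both overlapped between genotypes in copper. Without wild type copper replicate 1 both were called in copper (adjusted p = 2.6e-04 and 5.6e-04), as they were in the fit of 9 libraries. Their interactions were not called (HMOX1 interaction -1.49 ± 0.44, adjusted p = 0.060, SQSTM1 interaction -1.58 ± 0.49, adjusted p = 0.069). The interaction, which tests whether the difference in copper differs from that untreated, was called for 545 of 11051 genes (4.93%; KO relatively higher in copper for 1.26% and lower for 3.67% of them), and for 304 of the 2694 genes called in copper. KO was relatively higher in copper for 25.5% of these calls, or 13.1% of 960 calls with scaling by total counts alone. Leaving out KO untreated replicate 3 gave 5882 interaction calls and leaving out wild type copper replicate 3 gave 620, and each of the other 10 libraries left out gave 13 to 71.

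Some genes differed in opposite directions. EDN1 was at 0, 0 and 0.610 CPM in KO and 14.8, 16.2 and 15.7 CPM in wild type untreated (adjusted p = 0.0085), where KO was lower, and higher in KO in copper (interaction 7.26 ± 0.65, adjusted p = 8.3e-04). Too few counts lay behind the untreated KO value for a fold change, and the fitted size of the EDN1 interaction is uncertain for the same reason. GADD45B was at 6.24, 2.05 and 8.85 CPM in KO and 30.6, 26.6 and 22.2 CPM in wild type untreated (-2.17 ± 0.42, adjusted p = 0.026), again the opposite of copper (interaction 3.62 ± 0.45, adjusted p = 0.0037). CCN2, a matrix protein gene that growth factors induce, was at 45.7, 78.8 and 113 CPM in KO and 1153, 1182 and 1162 CPM in wild type untreated (-3.97 ± 0.37, adjusted p = 0.0052) and at 301, 254 and 260.0 CPM in KO against 157, 296 and 314 CPM in wild type in copper (log2 fold change 0.00 ± 0.24, adjusted p = 0.99; interaction 4.06 ± 0.44, adjusted p = 0.0026), so the genotypes were apart without copper and overlapped with it.

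**Figure D5:**
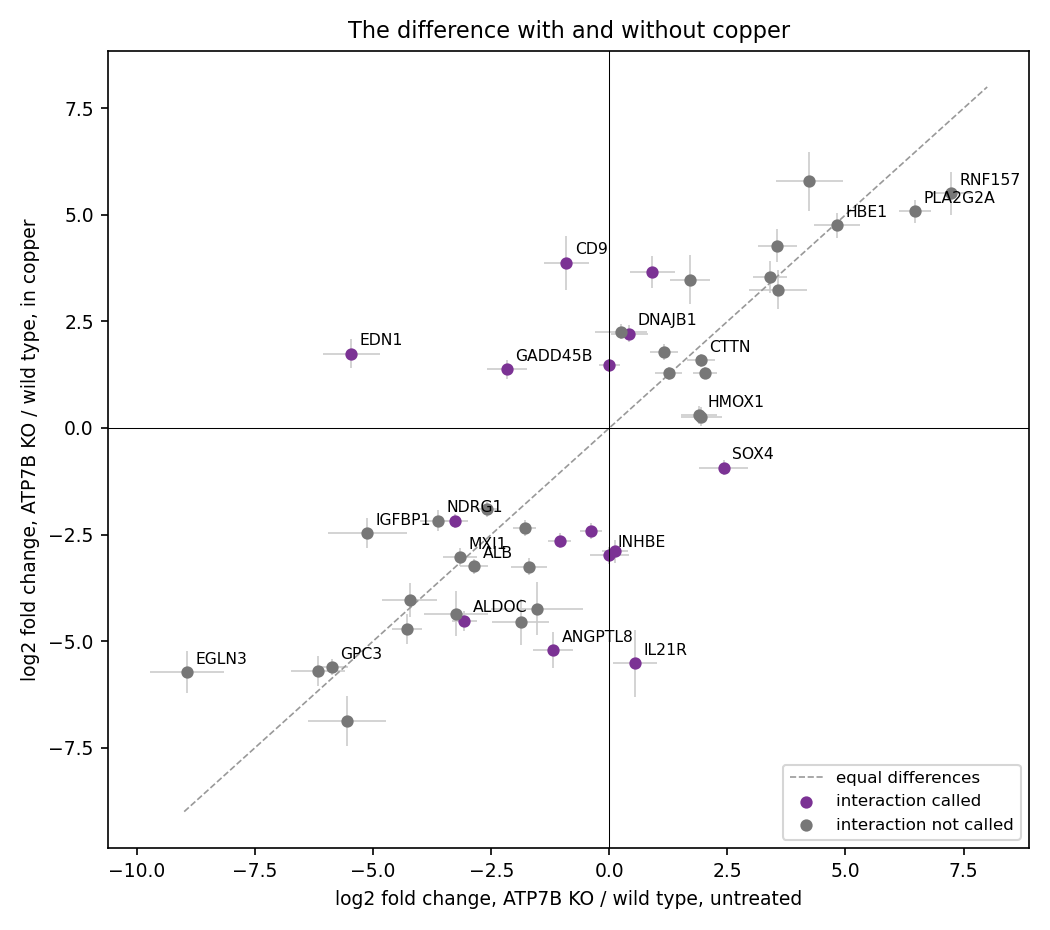
Log2 fold change between ATP7B KO and wild type without copper (x axis) and in copper (y axis), with approximate standard errors as grey bars, for 46 named genes tested in both. The dashed line marks equal differences, and the 15 purple points are genes whose interaction was called. GPC3, MXI1 and HBE1 lie near the line, and EDN1 and GADD45B lie on opposite sides of 0 in the 2 settings.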

How the data were processed

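Messenger RNA was measured with a 3′ end protocol in 12 HepG2 libraries (3 per group) from 100 ng of RNA each, per the labels' protocols. The deposited values are raw counts per gene, and the submitters' processing notes name STAR 2.3.0, HTSeq and hg19. Neither an annotation release nor a strand setting is named there, so overlapping and antisense genes cannot be told apart. Of 47634 gene IDs, 33673 matched a symbol and held 98.88% of counts.

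The tests used edgeR 4.0.16 in R 4.3.3: filterByExpr, TMM factors and the robust quasi-likelihood test with Benjamini-Hochberg adjustment over all tested genes, called at 0.05. The copper comparison was fitted on its 6 libraries, the untreated comparison on the other 6, and the interaction on all 12. All-library totals ran from 976658 to 3829151 counts, and 3 counts, the floor used for folds, equal 1.07 to 1.601 CPM in the copper libraries. Counting intervals (95%, exact) cover counting error only. TMM factors ran from 0.953 to 1.05. In simulated data with 200 changed genes, the copper test found 45% of 2-fold and 92% of 4-fold changes and called 12 unchanged genes. The untreated test found 0% of 2-fold and 27% of 4-fold changes, and the interaction test 0% and 31%. A gene not called in those tests may thus still differ. The simulated data held no library that stood apart and fewer changed genes than were called here.

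Named genes were ATP7B, the largest and the best supported changes, and the leading called and most abundant other members of 50 gene lists (1196 of 1217 symbols matched). Some genes that the rule names are not reported here. Members and lists were chosen with earlier results of these data known. Alternatives covered scaling, filters, tools (DESeq2 1.42.0 and limma 3.58.1), the libraries fitted, each library left out and a replicate block. Same-numbered copper libraries of both genotypes did not deviate together, which does not settle whether they shared a batch.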

Additional observations from a re-analysis of the deposited data

Results flagged for a closer look

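The difference between ATP7B KO and wild type differed with and without copper for 41 of the genes named above, by the interaction term of edgeR's quasi-likelihood test over 12 libraries (adjusted p from 8.3e-04 to 0.045). The named genes were 181 called and 87 not called in copper, and of all tested genes 545 of 11051 (4.93%) had a called interaction. Many genes were named for their difference in copper, which is part of the interaction, so the 2 shares cannot be compared. The values are log2 differences of differences, positive where KO stood relatively higher in copper. They were positive for EDN1 (7.26), CCN2 (4.06), GADD45B (3.62), ANKRD1 (1.57), CD9 (4.88), SLC2A3 (1.73), CENPE (1.81), MAFG (2.95), SNAI1 (4.61), DNAJB4 (2.32), FILIP1L (1.19), ALPK2 (2.83), ADM (2.49), BAG3 (1.81), BIRC3 (1.85) and DNAJB1 (1.88). They were negative for F7 (-2.91), SPON2 (-1.92), INHBE (-2.87), ANGPTL8 (-3.92), IL21R (-6.0), SOX4 (-3.24), PSPH (-1.61), ERBB3 (-1.48), NUPR1 (-1.64), PNPLA3 (-3.10), RXRA (-1.46), PROX1 (-1.41), LRG1 (-1.67), EGR1 (-1.41), PEG3 (-1.44), ABCB4 (-2.69), AGPAT2 (-2.16), FGG (-1.53), CBS (-1.13), FGA (-1.19), ALDOC (-1.35), PHGDH (-1.89), BCL2L1 (-2.50), JDP2 (-1.23) and SLC39A7 (-2.11). EDN1, SNAI1 and IL21R had few counts in at least 1 group, so their fitted values depend on the prior count. A fit of 9 libraries, chosen after the data had been seen, left out wild type copper replicate 1 and KO untreated replicates 1 and 2. It holds only 1 untreated KO library, replicate 3, so its sizes are given without tests. Leaving out that replicate 3 gave 5882 interaction calls, against 29 and 71 without KO untreated replicate 1 or 2. The differences were smaller in the fit of 9 libraries for 38 of the 41 genes. They moved to -0.70 for BCL2L1, -1.0 for ABCB4, -1.59 for SOX4, -1.55 for PNPLA3 and -2.34 for ANGPTL8, and that of SNAI1 to 8.03. Leaving out 1 library changed the total number of interaction calls between 13 and 5882, as given above.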

How the results depend on the processing

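The copper comparison called 2694 genes. The count was 1525 with all 12 libraries in the fit (11051 genes tested), 2653 with relative log expression factors, 2749 with total counts alone, 2420 with DESeq2, 2669 with limma voom, 3403 with no filter on low counts and 2568 with a minimum mean of 10 counts, and it ran from 1135 to 4087 when 1 library was left out. Scaling by total counts alone moved the median log2 fold change of all genes from -0.0018 to 0.0843 and the share of calls with KO higher from 43.8% to 53.2%. With the replicate number as a block, 1597 genes were called, 1595 of them also called without it. The labels do not say whether a number stands for the same batch in both genotypes. Deviations of same-numbered libraries correlated at -0.260, -0.062 and -0.120, and those of unlike numbers at -0.170 to 0.285. With 3 libraries per group these values cannot tell whether libraries were handled together. In the fit of 9 libraries without wild type copper replicate 1 and KO untreated replicates 1 and 2, chosen after seeing the data, 4527 genes were called, and CCN2 changed sign to -0.25 with an adjusted p of 0.034.

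Untreated, 1421 calls became 3521 with all 12 libraries, 2608 with DESeq2, 249 with the replicate block, 4132 in the fit of 9 libraries, and 6 to 7127 with 1 library left out. The 545 interaction calls became 960 with total counts alone, 163 with limma voom, 2366 with no filter on low counts, 113 with the replicate block, 1050 in the fit of 9 libraries, and 13 to 5882 with 1 library left out.

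The block ended 11 calls among the 181 named genes called in copper. In the 14 settings other than the block, 152 of the 181 kept the call wherever they were tested. Named genes were chosen by rank, so this share does not describe all calls. Of all 2694 calls, 1104 were kept without KO copper replicate 1, 1231 without KO copper replicate 3 and 1463 in the fit of all 12 libraries. Without wild type copper replicate 1, 2659 were kept. The cause of these shifts was not tested. Depth limits low genes: a library with 0 counts of a gene allows up to 1.07 to 1.601 CPM in the copper libraries.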
